A study of Mus musculus with 46 samples.

Results

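The first hour after an ovulatory stimulus was described across the genome from 12 single mouse ovarian follicles of 1 library set, out of 46 follicles in the whole series. The 12 were the 3 follicles of batch 2 collected 1 h after human chorionic gonadotropin (hCG), replicates 11 to 13, and the 9 follicles collected at 0 h, all of which also belong to batch 2. They were chosen by their labels for time and batch, and the genes by 1 rule: 9423 of 25147 genes with no count in any of the 6 libraries of batch 2 from hCG-treated follicles (3 at 1 h and 3 at 4 h) were left out, since the counts that 2890 of them had at 0 h are taken to come from the batch adjustment of the table. Each library held the polyadenylated RNA of a single follicle, and the mice were CD-1, an outbred stock. Follicles of both groups had grown for 8 days in alginate, a gel, in medium with follicle-stimulating hormone (FSH). The 1 h group was then held for 1 h in medium with 1.5 IU/ml hCG, 10 ng/ml epidermal growth factor (EGF), 10 mIU/ml recombinant FSH and 10% fetal bovine serum, after the gel had been dissolved with an enzyme. The labels name no follicles held for the same hour without hCG, so hCG, EGF, serum and the handling cannot be told apart. Nor do they say which animal a follicle came from, and the p-values below thus measure the spread from follicle to follicle.

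In a grown follicle, hCG acts on the receptor for luteinizing hormone on the outer granulosa cells, which raises cyclic AMP and activates protein kinase A. The kinase phosphorylates CREB, which turns on promoters that hold a cyclic AMP response element, and the granulosa cells release EGF-like ligands that carry the signal inward through the EGF receptor and ERK. The known immediate early genes (Fos, Egr1, Nr4a1 and the like), which need no new protein to be transcribed, make up the first wave. The account below is mostly of the genes outside a chosen list of such genes.

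The total count per library was 765600, 401328 and 379640 in the follicles at 1 h, against 1633566 to 5185044 (median 3286107) in the follicles at 0 h, and the groups did not overlap. The genes left out had taken 22.6% to 46.2% of all counts in the 0 h libraries. Without them, 11918, 10467 and 9362 genes had a count at 1 h, against 12674 to 14023 at 0 h. The labelled tissue was checked by 12 defining granulosa genes. Amh was left out by the rule, having no count in batch 2 after hCG, and of the 11 tested, 1 rose and 3 fell. Gja1, the most abundant at a mean of 52630 CPM, made up much of their sum. Their summed level was 69990, 63780 and 107300 CPM (counts scaled to library size with TMM factors) at 1 h, against 58200 to 112900 CPM at 0 h (exact permutation test over 220 splits, two-sided p = 0.482, adjusted over 12 library measures 0.565). Markers of oocyte, theca and stroma, endothelium, leukocytes and surface epithelium did not pass the same test (adjusted p 0.291 to 0.945). Of their 31 tested members, 1 rose (Gdf9, an oocyte gene, at 5.99, 46.0 and 0 CPM at 1 h, against 0 to 6.11 CPM at 0 h, with no rise in the list without 0 h replicate 1) and none fell. Mitochondrial genes took 11.4%, 9.30% and 8.39% of counts at 1 h, against 8.87% to 12.3% at 0 h (exact permutation p = 0.518). In whole follicles, fewer cells of a type and less RNA per cell cannot be told apart.

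Of 9531 genes with enough counts to test, 1802 (18.9%) differed between 1 h and 0 h (edgeR quasi-likelihood test, Benjamini-Hochberg adjusted p under 0.05). Of these, 700 (7.34% of genes tested) rose and 1102 (11.6%) fell. The median log2 fold change over all genes tested was -0.21, and every count of a gene list below is to be read against these shares and that median. All 3 follicles at 1 h lay above all 9 at 0 h in 7.29% of genes tested and below them in 11.8%. Rises reached at least 4-fold in 245 genes and at least 16-fold in 64. Of the calls, 759 stood in each of the 12 fits that left out 1 library, 315 of them rises and 444 falls. Without 1 h replicate 11, the deepest library of its group, 419 genes rose and 987 fell. Where the count of a list below moved by more than 1.5 times in such fits, the count at the end of its range is given with 1 library whose absence gave it. Recovery was low for small changes. In simulated data on 9317 genes of the same comparison, 11 of 100 changes of 2-fold and 56 of 100 of 4-fold were recovered. There were 5 false calls. Only those genes were changed in the simulation, far fewer than were called in the data. The adjusted threshold depends on that share, so recovery in the data can differ.

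The immediate early list, with 36 of its 39 tested members higher, none lower and a median log2 fold change of 4.16, accounted for a small part of the rises. The other 664 rises (94.9%) lay outside it. The list is a chosen one of 54 names, and whether genes outside it are immediate early genes too was not tested. Members of the list that rose held 2.55%, 2.82% and 4.07% of the counts of tested genes at 1 h, against 0.0928% to 0.227% (median 0.138%) at 0 h. The other rises held 23.0%, 22.8% and 26.6% of counts at 1 h, against 7.12% to 10.9% (median 9.73%) at 0 h. The falls held 2.58%, 3.01% and 2.41% at 1 h, against 7.59% to 10.8% (median 8.61%) at 0 h. These shares describe genes chosen by the same comparison.

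**Figure D1:**
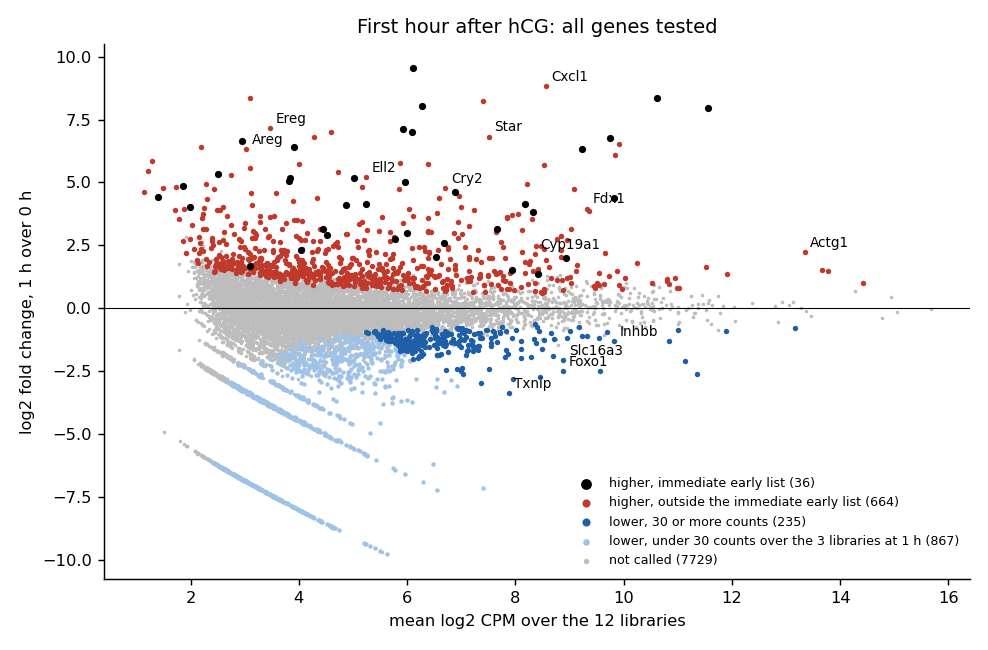
Each point is 1 of 9531 genes tested, with its mean log2 CPM over the 12 libraries on the x axis and its log2 fold change (1 h over 0 h) on the y axis. Black and red points are the 36 immediate early genes and the 664 other genes that rose. Dark blue points are 235 falls with 30 or more counts at 1 h, pale blue points the 867 falls with fewer, of which many lie on the lines that 0 to 3 counts make at the bottom.

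The genes with the largest rises outside the immediate early list included chemokines, tissue factor, EGF-like ligands, genes of cyclic AMP feedback and of steroid hormone synthesis, and 4 genes of no list (Srxn1, Arrdc3, Ifrd1 and Osgin2). By the rule for naming them (the 12 with the largest log2 fold change, among those called in every fit that left out 1 library and with groups that did not overlap), they were Cxcl1, Cxcl2, F3, Ereg, Sik1, Star, Srxn1, Arrdc3, Areg, Ifrd1, Crem and Osgin2. Their log2 fold changes ran from 8.82 (Cxcl1) to 5.75 (Osgin2). Of the genes described further on, the 2 largest rises and falls of a list and 9 set genes were named by rule, and the others, in a list or in none, were picked after their values were seen. Genes ranked within a list met the same conditions, so their separation from 0 h was a condition of naming and not a result.

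Several genes that act back on cyclic AMP signaling rose. Of 27 tested genes of a cyclic AMP and CREB list, 12 rose and 4 fell, with a median of 0.74, and 9 of the rises stood in each fit without 1 library. Sik1 (ENSMUSG00000024042.7, chromosome 17 from 31844250 to 31855804, GRCm38), a kinase that restrains CREB coactivators, was at 98.8, 149 and 123 CPM at 1 h, against 0 to 1.83 CPM (median 0.841) at 0 h. Sik1 rose by 7.01 ± 0.42 on the log2 scale (SE, edgeR adjusted p = 2.68e-09). Crem, which encodes a repressor of the same promoters, was at 263, 168 and 316 CPM at 1 h, against 1.42 to 7.33 CPM (median 4.29) at 0 h. All 3 follicles at 1 h were thus above all 9 at 0 h in both genes. Rgs2, an inhibitor of G protein signaling, reached 1365, 1400 and 1530 CPM at 1 h, against 15.7 to 38.5 CPM at 0 h, a log2 fold change of 5.68 ± 0.24 (SE, edgeR adjusted p = 3.46e-11). The phosphodiesterase genes Pde10a and Pde7b, whose products break down cyclic AMP, rose as well, Pde10a by 4.78 ± 0.59 on 18 counts at 1 h and Pde7b by 2.34 ± 0.47 (log2, SE). The receptor gene itself, Lhcgr, was at 46.4, 48.7 and 356 CPM at 1 h, against 12.2 to 373 CPM (median 131) at 0 h, and did not pass the test (log2 fold change 0.17 ± 0.72, edgeR adjusted p = 0.894; -1.48 without 1 h replicate 13). Of the falls, Pde4a, Akap7 and Crtc1 had 12 or fewer counts over the 3 libraries at 1 h. Prkacb, a catalytic subunit of protein kinase A, was at 114, 92.1 and 34.7 CPM at 1 h, against 141 to 216 CPM at 0 h, a log2 fold change of -1.18 ± 0.29 (SE, edgeR adjusted p = 0.00890). Without 0 h replicate 5, 2 genes of the list fell. The call of Prkacb was lost in 4 alternatives, among them with the 5 libraries at 0 h whose descriptions end in "_ds" left out (edgeR adjusted p = 0.0864; the labels do not say what "_ds" means) and with all libraries thinned to 379640 counts (edgeR adjusted p = 0.374).

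**Figure D2:**
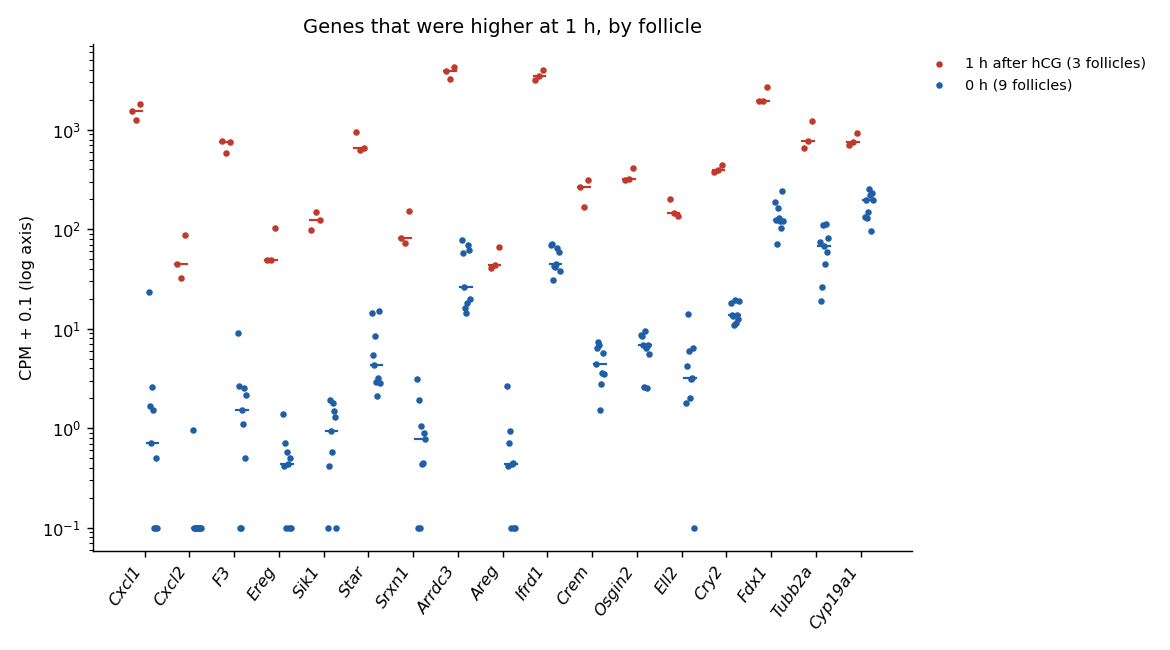
CPM of 17 genes that rose, on a log axis after adding 0.1, with the 3 follicles at 1 h (red, left, replicates 11 to 13 in order) and the 9 at 0 h (blue, right); bars are medians. In each of these genes all 3 red points lie above all 9 blue points, which was a condition of their choice, from Cxcl1 (log2 fold change 8.82) to Cyp19a1 (2.14).

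The ligand genes Ereg and Areg of the EGF receptor rose, and so did inhibitors of its pathway. Of 17 tested genes of an EGF and ERK list, 8 rose and 1 fell (Etv5, with 0 counts at 1 h), with a median of 1.81, and 2 fell without 1 h replicate 11. Ereg, which encodes the ligand epiregulin, was at 49.4, 48.7 and 104 CPM at 1 h, against 0 to 1.29 CPM at 0 h, a log2 fold change of 7.16 ± 0.50 (SE, edgeR adjusted p = 1.42e-08). Areg, which encodes amphiregulin, was at 40.4, 43.3 and 66.2 CPM at 1 h, against 0 to 2.58 CPM at 0 h, a log2 fold change of 6.33 ± 0.59 (SE, edgeR adjusted p = 7.22e-07). Both ligands were thus near 0 before hCG in 9 of 9 follicles and counted in 3 of 3 after it, and the change of Areg was 7.15 without 0 h replicate 1, the highest at 0 h. Among the inhibitors, Errfi1, which binds the receptor, rose by 6.33 ± 0.32, Spry2 by 3.65 ± 0.52 (4.27 without 0 h replicate 3), and the phosphatase genes Dusp8 and Dusp6 by 4.57 ± 0.45 and 1.81 ± 0.45 (log2, SE). Egfr itself was at 20.9, 0 and 3.15 CPM at 1 h, against 15.3 to 39.9 CPM at 0 h, and did not pass the test (edgeR adjusted p = 0.115).

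The promoters of 4 of these early rises outside the immediate early list are shown because each holds a perfect cyclic AMP response element, the octamer to which CREB binds. Of the 12 leading rises, Areg was the 1 with a match among those in the promoter table, and Ell2, Ccnl1 and Tubb2a were taken from further rises after their values were seen. Sequences are RefSeq's, build GRCm38.p6, from 250 bases before to 50 after the start, 5′ to 3′ on the gene's strand, with the octamer TGACGTCA, which reads the same on both strands, in capitals. Areg lies at chr5:91139349-91139648 (plus strand), Ell2 at chr13:75707234-75707533 (plus), Ccnl1 at chr3:65958200-65958499 (minus) and Tubb2a at chr13:34077959-34078258 (minus).
Areg: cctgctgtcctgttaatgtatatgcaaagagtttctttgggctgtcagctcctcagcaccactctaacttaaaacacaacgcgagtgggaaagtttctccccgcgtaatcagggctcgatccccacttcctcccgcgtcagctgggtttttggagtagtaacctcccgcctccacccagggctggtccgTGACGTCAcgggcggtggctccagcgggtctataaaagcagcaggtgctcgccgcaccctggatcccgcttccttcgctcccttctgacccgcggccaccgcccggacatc
Ell2: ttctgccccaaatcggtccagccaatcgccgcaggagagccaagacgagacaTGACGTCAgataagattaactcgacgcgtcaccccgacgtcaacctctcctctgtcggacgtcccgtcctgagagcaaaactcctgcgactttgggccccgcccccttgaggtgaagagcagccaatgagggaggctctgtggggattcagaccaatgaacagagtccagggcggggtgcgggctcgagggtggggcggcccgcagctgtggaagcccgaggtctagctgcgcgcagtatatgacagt
Ccnl1: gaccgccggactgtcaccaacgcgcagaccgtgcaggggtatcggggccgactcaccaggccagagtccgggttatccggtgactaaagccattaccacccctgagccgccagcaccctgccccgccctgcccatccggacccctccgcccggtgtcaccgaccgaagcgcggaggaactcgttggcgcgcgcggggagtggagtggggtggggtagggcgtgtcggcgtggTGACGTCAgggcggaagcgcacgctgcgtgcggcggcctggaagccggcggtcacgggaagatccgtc
Tubb2a: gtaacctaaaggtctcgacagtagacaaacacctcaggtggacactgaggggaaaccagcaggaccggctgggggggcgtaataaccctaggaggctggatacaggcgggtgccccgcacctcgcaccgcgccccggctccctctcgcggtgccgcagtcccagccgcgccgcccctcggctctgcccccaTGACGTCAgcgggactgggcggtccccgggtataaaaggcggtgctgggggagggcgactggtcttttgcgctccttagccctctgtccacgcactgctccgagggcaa
The octamer starts 61 bases before the gene start in Areg, 198 before it in Ell2, 18 before it in Ccnl1 and 59 before it in Tubb2a. It occurs in 2.03% of the 27025 genes with a promoter in the table, and its first 5 bases TGACG, which it contains, occur on either strand in 23.0% of them. Among the 7061 tested genes with an entry, the shares were higher, at 3.8% and 37.3%. Mrpl49 and Zfp266, which fell, hold the octamer too. Only 7061 of the 9531 genes tested had an entry, under 80%, so a comparison of motif shares between rises, falls and other genes was void and none is given. A match is a description of the letters in this window and not of a bound site. Ell2, which encodes an elongation factor of RNA polymerase II, was at 204, 146 and 136 CPM at 1 h, against 0 to 14.1 CPM (median 3.12) at 0 h. Ccnl1, a cyclin linked to splicing, was at 419, 506 and 442 CPM at 1 h, against 12.03 to 38.6 CPM (median 26.7) at 0 h. Neither gene overlapped between the times.

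Genes of follicle rupture, matrix and prostaglandins formed the next group. Of 16 tested, 9 rose and none fell, with a median of 2.86, 7 of the rises stood in each fit without 1 library, and 2 genes fell without 1 h replicate 11. F3 (ENSMUSG00000028128.13, chromosome 3 from 121723537 to 121735048), tissue factor, which starts blood clotting, was at 772, 580 and 760 CPM at 1 h, against 0 to 9.02 CPM (median 1.42) at 0 h. F3 rose by 8.26 ± 0.51 on the log2 scale (SE, edgeR adjusted p = 3.32e-09), and by 8.96 without 0 h replicate 1. Plau, the protease urokinase, was at 245, 162 and 287 CPM at 1 h, against 4.46 to 12.8 CPM at 0 h. Adamts1, a protease that cuts versican, was at 1567, 1839 and 2555 CPM at 1 h, against 57.4 to 88.3 CPM at 0 h, a log2 fold change of 4.75 ± 0.19 (SE, edgeR adjusted p = 2.72e-11). In these 3 genes the lowest follicle at 1 h stood far above the highest at 0 h. Ptgs2, the inducible enzyme of prostaglandin synthesis, rose on few counts. It was at 43.4, 13.5 and 18.9 CPM at 1 h, against 0 to 1.04 CPM at 0 h, with 40 counts over the 3 libraries at 1 h and 5 over the 9 at 0 h (log2 fold change 6.39 ± 0.69, edgeR adjusted p = 3.62e-06), and the change was 5.64 without 1 h replicate 11 and 7.14 without 0 h replicate 7. Tnfaip6, which builds the matrix around the cumulus, rose by 5.28 ± 0.48 (log2, SE). Has2, which makes the hyaluronan of that matrix, was at 23.9, 16.2 and 0 CPM at 1 h, against 0 to 5.50 CPM at 0 h, a log2 fold change of 3.31 ± 0.89 (SE, edgeR adjusted p = 0.0152) that did not stand in every fit without 1 library. Pgr, the progesterone receptor, had too few counts to test, at 5.99, 8.12 and 22.1 CPM at 1 h, against 0 to 1.74 CPM at 0 h.

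Among genes of steroid synthesis, the largest rises were in those that carry cholesterol into mitochondria and pass electrons there. Star (ENSMUSG00000031574.8, chromosome 8 from 25806555 to 25815982), which moves cholesterol to the inner mitochondrial membrane, was at 943, 623 and 656 CPM at 1 h, against 2.02 to 15.2 CPM (median 4.28) at 0 h. Star rose by 6.83 ± 0.43 on the log2 scale (SE, edgeR adjusted p = 4.57e-09). Fdx1, the electron donor of the side-chain cleavage enzyme, was at 1951, 1931 and 2678 CPM at 1 h, against 70.9 to 243 CPM (median 125) at 0 h, a log2 fold change of 3.96 ± 0.27 (SE, edgeR adjusted p = 9.97e-09). Both genes lay clear of 0 h, while the cleavage enzyme itself did not: Cyp11a1 was at 389, 328 and 943 CPM at 1 h, against 89.2 to 436 CPM at 0 h (log2 fold change 1.42 ± 0.43, edgeR adjusted p = 0.0270). Cyp19a1, aromatase, which makes estradiol and is a gene of the follicular phase, was at 700, 753 and 924 CPM at 1 h, against 95.5 to 254 CPM (median 197) at 0 h, a log2 fold change of 2.14 ± 0.25 (SE, edgeR adjusted p = 1.25e-05). Hsd3b1 was at 7906, 8513 and 12210 CPM at 1 h, against 5385 to 17630 CPM at 0 h, and did not pass the test (edgeR adjusted p = 0.500). Of the 20 tested genes of progesterone synthesis and cholesterol supply, 7 rose and 1 fell (Nr5a1), with a median of 0.11. In that list 4 genes rose without 1 h replicate 11 and 3 without the "_ds" libraries, and none fell without 1 h replicate 12.

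Within sterol and fatty acid synthesis, 10 of 37 tested genes rose and none fell, although the median of the list was -0.22, close to that of all genes. Of the 10, 9 act in cholesterol synthesis, its control or cholesterol uptake, and Elovl5 extends fatty acids. Insig1, which holds back the factor that drives the pathway, was at 902, 934 and 1612 CPM at 1 h, against 114 to 301 CPM at 0 h, a log2 fold change of 2.30 ± 0.25 (SE, edgeR adjusted p = 4.16e-06). Idi1, Cyp51, Hmgcs1 and Srebf2 rose by 1.28 to 1.97 on the log2 scale, and Soat1 of the cholesterol supply list, which esterifies cholesterol, by 1.14 ± 0.20 (SE). The remaining 27 tested genes of the list did not pass the test, and 2 genes of the list fell without 0 h replicate 3.

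Chemokines and the feedback genes of NF-kB, a factor of inflammation, also rose. Of 29 tested, 14 rose and none fell, with a median of 1.43, 13 stood in each fit without 1 library, and 1 gene fell without 0 h replicate 8. Cxcl1 (ENSMUSG00000029380.11, chromosome 5 from 90891241 to 90893115), a chemokine that attracts neutrophils, was at 1553, 1265 and 1814 CPM at 1 h, against 0 to 23.2 CPM (median 0.611) at 0 h. Cxcl1 rose by 8.82 ± 0.83 on the log2 scale (SE, edgeR adjusted p = 7.53e-07), and by 10.92 without 0 h replicate 1, the highest at 0 h. Its neighbor Cxcl2 was at 44.9, 32.5 and 88.3 CPM at 1 h and had 2 counts over the 9 libraries at 0 h, a ratio of counts at equal depth of 523 (95% exact binomial interval 139 to 4402, counting error only). Both chemokines were above every follicle of 0 h in 3 of 3 follicles at 1 h. Nfkbia, the inhibitor that holds NF-kB in the cytoplasm, was at 542, 601 and 672 CPM at 1 h, against 40.3 to 122 CPM at 0 h, a log2 fold change of 3.05 ± 0.26 (SE, edgeR adjusted p = 2.07e-07). Tnfaip3, which ends the signal by editing ubiquitin chains, was highest in replicate 11, at 147, 29.8 and 47.3 CPM at 1 h, against 0 to 3.44 CPM at 0 h. The subunit genes Nfkb1, Nfkb2, Rel and Relb rose by 4.73, 3.50, 2.70 and 2.70 on the log2 scale. The leukocyte marker sum was 58.4, 40.6 and 37.9 CPM at 1 h, against 14.8 to 194 CPM at 0 h. At 1 h, 8 of the 16 leukocyte markers, Ptprc among them, were at 0, of which 3 (S100a8, S100a9 and Cd74) were at 0 at 0 h too. Of the 16, 5 had been left out by the rule on genes, which itself requires 0 counts at 1 h, and 1 was tested. The part of leukocytes in these rises was not tested.

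Genes of the actin and microtubule cytoskeleton rose together. Of 37 tested targets of SRF, MRTF and YAP, factors that respond to actin and to serum, 20 rose and none fell, with a median of 1.10; 13 stood in each fit without 1 library, 14 rose without 1 h replicate 11 and 1 fell without 0 h replicate 3. Actg1, cytoplasmic gamma actin, was at 29380, 22860 and 24310 CPM at 1 h, against 2833 to 7623 CPM (median 5440) at 0 h, a log2 fold change of 2.23 ± 0.26 (SE, edgeR adjusted p = 1.25e-05). Actb, cytoplasmic beta actin, was at 36890, 33640 and 35430 CPM at 1 h, against 11420 to 22820 CPM at 0 h, a log2 fold change of 1.02 ± 0.22 (SE, edgeR adjusted p = 0.00418). Both actin genes thus lay above all 0 h follicles with little spread among the 3 at 1 h. Vcl, which ties actin to adhesions, rose by 2.79 ± 0.23, and the tropomyosin gene Tpm4 by 2.37 ± 0.25 (log2, SE). The hippo pathway genes Amotl2, Lats2 and Yap1 rose by 2.20, 1.53 and 1.97.

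The sum of smooth muscle markers, most of it Acta2, moved with this group. The sum was 1428, 1113 and 1391 CPM at 1 h, against 35.7 to 566 CPM (median 189) at 0 h, and the groups did not overlap (exact permutation p = 0.00909, the smallest that 220 splits allow, adjusted 0.0218). This test thus mostly reflects Acta2 and not the list as a whole. Of 12 markers, 1 was left out by the rule on genes and 4 were tested. Of these, 3 rose, namely Acta2, Myl9 and Actg2, all of which are in the SRF list too, and 1 of the rises stood in each fit without 1 library. Cnn1 and Lmod1 were at 0 at 1 h, Lmod1 at 0 h too. Acta2, the actin of smooth muscle, was at 1350, 1021 and 1287 CPM at 1 h, against 28.7 to 502 CPM (median 152) at 0 h, a log2 fold change of 2.76 ± 0.58 (SE, edgeR adjusted p = 0.00316). Without 1 h replicate 11, 1 of the 4 tested markers rose. The part of smooth muscle cells in the rise of the cytoskeletal genes was not tested.

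Of 13 tested tubulin genes, 8 rose and none fell, with a median of 1.64. Tubb2a (ENSMUSG00000058672.7, chromosome 13 from 34074274 to 34078007) was at 663, 780 and 1214 CPM at 1 h, against 19.1 to 114 CPM (median 67.3) at 0 h, a log2 fold change of 3.74 ± 0.38 (SE, edgeR adjusted p = 1.79e-06). Tubb6 and Tubb2b rose by 3.03 ± 0.40 and 3.00 ± 0.28, Tubb4b by 1.64 ± 0.31 and Tubb5 by 1.22 ± 0.32 (log2, SE). Beta tubulin genes are close copies of each other, and how reads were shared among them is not given in the sources used here, so the split between them is uncertain. With libraries thinned to equal depth, 6 of 11 tested tubulin genes rose. The integrin genes Itgav and Itga2, receptors for the matrix, among 10 tested integrin genes of which 3 rose (median 0.88), rose by 2.81 ± 0.42 and 2.27 ± 0.42 (log2, SE), while none of 23 tested collagen and laminin genes passed the test (median 0.33). Without 0 h replicate 7, 3 collagen or laminin genes rose, and without 1 h replicate 11, 1 of them and 1 integrin gene fell.

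Stress and translation genes rose in part. Of 35 tested genes of the amino acid response and tRNA charging, 9 rose and none fell, with a median of 0.39. Atf4, the factor at the center of that response, was at 326, 295 and 375 CPM at 1 h, against 56.2 to 124 CPM at 0 h, a log2 fold change of 2.03 ± 0.23 (SE, edgeR adjusted p = 9.39e-06). Ppp1r15a, which lets translation resume, was at 418, 742 and 1132 CPM at 1 h, against 34.1 to 74.2 CPM at 0 h, a log2 fold change of 3.63 ± 0.26 (SE, edgeR adjusted p = 1.85e-08). Its exons overlap those of Tulp2 on the other strand, which this unstranded protocol cannot separate. Amino acid transporter genes were among the risers, with Slc7a8 up by 3.72 ± 0.38, Slc7a1 by 3.05 ± 0.41 and Slc38a2 by 1.75 ± 0.23 (log2, SE). Of 35 heat shock and chaperonin genes, 7 rose and none fell (median 0.21), led by Bag3 at 67.3, 40.6 and 189 CPM at 1 h, against 4.89 to 17.5 CPM at 0 h. Of 31 genes of folding in the endoplasmic reticulum, 3 rose and none fell (median 0.01), and Dnajb9 led them with 2.44 ± 0.33 (log2, SE; 1.80 without 1 h replicate 13). Of 50 translation initiation factors, 6 rose and 3 fell (median 0.11), while 3 rose without 1 h replicate 11 and 1 fell without 1 h replicate 13. In the amino acid list 1 gene fell without 0 h replicate 9, and in the heat shock list 1 fell without 1 h replicate 12. Eif4e, which binds the cap of mRNA, led with 545, 336 and 322 CPM at 1 h, against 18.4 to 64.1 CPM at 0 h.

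Several of the largest rises belonged to none of the lists. Of the 700 rises, 473 were in no list or name family, as were 902 of the 1102 falls and 7539 of all 9531 genes tested. Arrdc3, an arrestin-like adaptor of receptor turnover, was at 3865, 3228 and 4281 CPM at 1 h, against 14.2 to 78.2 CPM (median 26.3) at 0 h, a log2 fold change of 6.54 ± 0.45 (SE, edgeR adjusted p = 9.97e-09). Ifrd1, a transcriptional coregulator, was at 3174, 3493 and 3997 CPM at 1 h, against 31.1 to 71.4 CPM (median 45.0) at 0 h, a log2 fold change of 6.10 ± 0.24 (SE, edgeR adjusted p = 2.72e-11). Both were low in all 9 follicles before hCG and stood far above them in all 3 after it. Srxn1, which repairs oxidized peroxiredoxins, was at 82.3, 73.1 and 155 CPM at 1 h, against 0 to 3.01 CPM at 0 h. Osgin2 was at 313, 320 and 416 CPM at 1 h, against 2.43 to 9.48 CPM at 0 h. Coq10b, which helps in the use of coenzyme Q, rose by 4.40 ± 0.29, and the autophagy genes Atg101 and Vmp1 by 3.94 ± 0.23 and 3.90 ± 0.27 (log2, SE). The polyubiquitin gene Ubb, which was named after its values were seen, rose as well. Ubb was at 18760, 22480 and 39930 CPM at 1 h, against 2267 to 16720 CPM at 0 h (log2 fold change 1.49 ± 0.39, edgeR adjusted p = 0.0130). This call was lost in some fits that left out 1 library.

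Some genes of the clock and of the glucocorticoid response rose as well. Of 16 tested clock genes, 4 rose and 2 fell, with a median of 0.35; both falls had 3 or fewer counts at 1 h, and none fell without 1 h replicate 12. Cry2, a repressor of the clock, was at 374, 393 and 445 CPM at 1 h, against 10.9 to 19.4 CPM (median 13.5) at 0 h, a log2 fold change of 4.78 ± 0.21 (SE, edgeR adjusted p = 5.23e-11). Its values were tight within both groups, which lay far apart. Bhlhe40 and Per1 rose by 3.13 ± 0.32 and 1.91 ± 0.39 (log2, SE). Of 14 tested glucocorticoid genes, 7 rose and none fell (median 1.67), of which Errfi1, Sgk1, Nfkbia, Dusp1 and Per1 are in other lists here as well. Of 24 genes of BMP, SMAD and ID signaling, 6 rose and 1 fell (median -0.37). Id2 was at 153, 184 and 214 CPM at 1 h, against 14.7 to 91.6 CPM at 0 h, and Id1, another inhibitor of the same kind, was at 1.50, 8.12 and 0 CPM at 1 h, against 7.94 to 50.3 CPM at 0 h. The calls were 2.40 ± 0.41 for Id2 and -3.17 ± 0.77 for Id1 (log2, SE), and in that list none fell without 1 h replicate 11, and 3 genes fell without 1 h replicate 12. Bmp2, a ligand of that pathway, was highest in replicate 13, with 949, 655 and 2565 CPM at 1 h, against 89.1 to 351 CPM at 0 h (log2 fold change 2.72 ± 0.38, edgeR adjusted p = 8.64e-05), and the change was 1.91 without it.

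**Figure D3:**
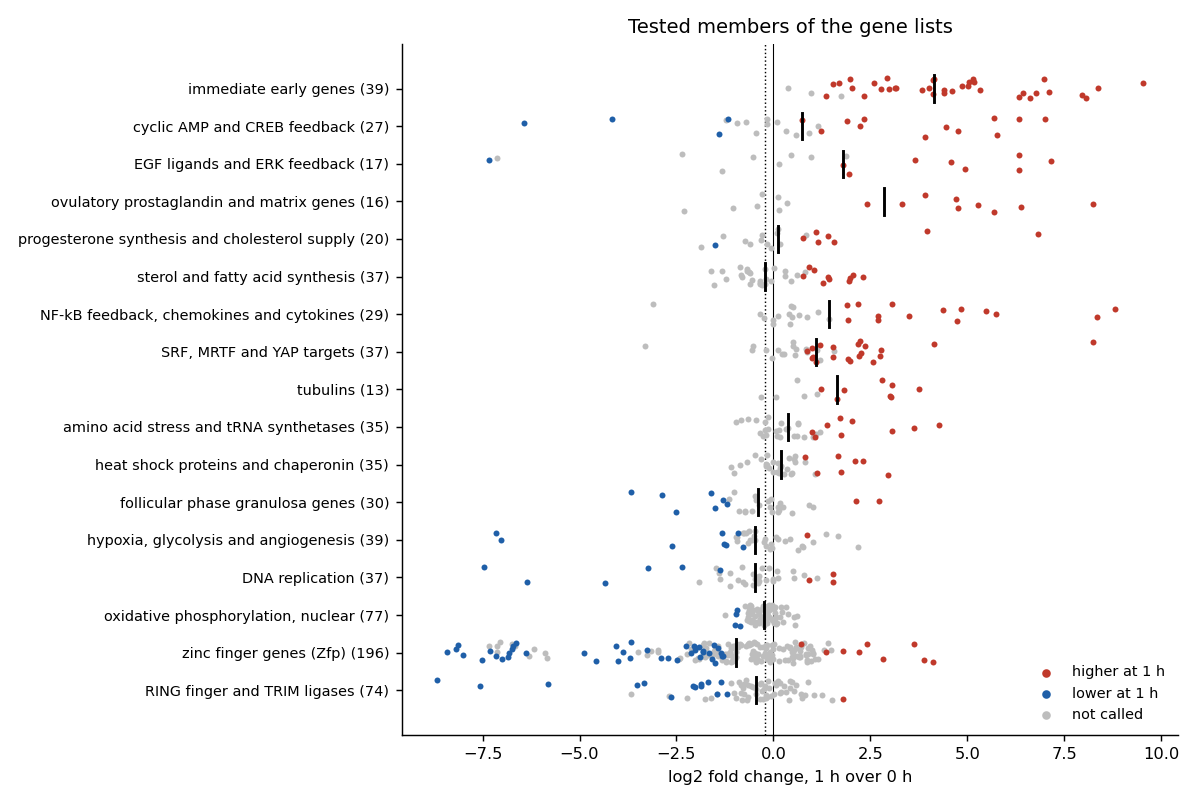
Log2 fold change (1 h over 0 h) of the tested members of 17 gene lists and name families, with the number tested in brackets; red members rose, blue members fell and gray members were not called. Black bars are list medians, from 4.16 (immediate early genes) to -0.97 (Zfp genes), and the dotted line is the median of all genes, -0.21.

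Many of the falls rested on few counts at 1 h. Of the 1102, 214 had 0 counts over the 3 libraries at 1 h, 294 had 1 to 3, 359 had 4 to 29 and 235 had 30 or more. The 214 could pass the filter on low counts only through the 0 h libraries, where they were high. The 294 with 1 to 3 counts could not pass it by the 1 h libraries alone either. Among the 235, the median log2 fold change was -1.24, 177 fell at least 2-fold and 16 at least 4-fold. All 3 follicles at 1 h lay below all 9 at 0 h in 176 of them. The split of calls between rises and falls differed between alternatives: 38.9% of calls were rises in all, 54.5% (403 rises and 336 falls) among 3323 genes whose mean log2 CPM reached 5, a limit chosen after seeing the data, and 63.9% (225 and 127) with the libraries thinned to equal depth, which left 5458 genes to test. By limma on the TPM values it was 20.2% (763 and 3021).

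Among the falls with 30 or more counts at 1 h, those named here were picked as the largest of this kind after seeing the data. Txnip (ENSMUSG00000038393.14, chromosome 3 from 96557957 to 96561883), a thioredoxin-binding arrestin that limits glucose uptake, was at 40.4, 2.71 and 41.0 CPM at 1 h, against 98.6 to 764 CPM (median 290) at 0 h, a log2 fold change of -3.38 ± 0.67 (SE, edgeR adjusted p = 0.00204). Bnip3, a mitochondrial protein of mitophagy, was at 498, 820 and 300 CPM at 1 h, against 2311 to 5896 CPM (median 2949) at 0 h, a log2 fold change of -2.61 ± 0.37 (SE, edgeR adjusted p = 1.07e-04). Slc16a3, the exporter of lactate, was at 135, 146 and 132 CPM at 1 h, against 305 to 819 CPM (median 599) at 0 h, a log2 fold change of -2.08 ± 0.31 (SE, edgeR adjusted p = 1.80e-04). Each follicle at 1 h was below the lowest at 0 h in these genes. Trib2, a pseudokinase, was at 444, 450 and 1060 CPM at 1 h, against 1942 to 3943 CPM at 0 h, and Bcl2l1, which opposes cell death, at 28.4, 70.4 and 31.6 CPM at 1 h, against 135 to 285 CPM at 0 h. The GTPase-activating genes Arhgap29 and Fam13a fell by 2.96 ± 0.49 and 2.49 ± 0.33 (log2, SE). For Mat2b the follicles at 1 h stood far apart, at 31.4, 103 and 0 CPM, against 205 to 481 CPM at 0 h.

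**Figure D4:**
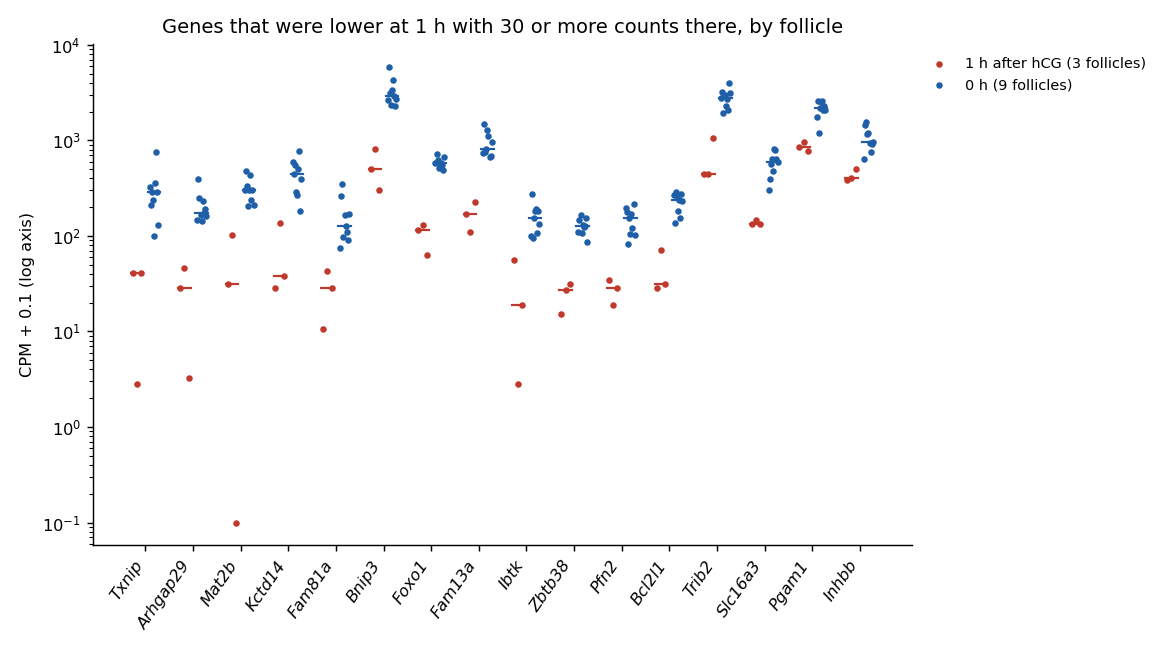
CPM of 16 genes that fell with 30 or more counts over the 3 libraries at 1 h, on a log axis after adding 0.1, with the follicles at 1 h (red, left, replicates 11 to 13 in order) and at 0 h (blue, right); bars are medians. All red points lie below all blue points of the same gene, which was a condition of their choice. Txnip, Arhgap29, Mat2b and Ibtk each have 1 follicle at 1 h far below the other 2.

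Falls also took in genes that mark granulosa cells of the growing follicle. Of 30 tested, 7 (23.3%) fell and 2 rose (Cyp19a1 and Bmp2), with a median of -0.40, and 11.6% of all genes fell. Without 0 h replicate 3, 4 genes of the list rose. Foxo1 (ENSMUSG00000044167.6, chromosome 3 from 52268336 to 52353221), a factor that FSH signaling holds in check, was at 115, 130 and 63.1 CPM at 1 h, against 488 to 728 CPM (median 577) at 0 h, a log2 fold change of -2.51 ± 0.27 (SE, edgeR adjusted p = 3.27e-06). Esr2, the estrogen receptor of granulosa cells, was at 126, 127 and 66.2 CPM at 1 h, against 258 to 410 CPM at 0 h, a log2 fold change of -1.62 ± 0.26 (SE, edgeR adjusted p = 3.00e-04). Inhbb, an inhibin and activin subunit, was at 388, 401 and 502 CPM at 1 h, against 632 to 1543 CPM at 0 h, a log2 fold change of -1.31 ± 0.28 (SE, edgeR adjusted p = 0.00419). These 3 lay below all follicles of 0 h. The call of Esr2 was lost in a fit of all 46 libraries with a batch term (log2 fold change -0.61, edgeR adjusted p = 0.286). Foxl2, a factor of granulosa identity, had 4 counts at 1 h and was at 0, 8.12 and 3.15 CPM, against 18.04 to 28.4 CPM at 0 h. Gata6 had 2 counts at 1 h and was at 0, 2.71 and 3.15 CPM, against 15.6 to 25.1 CPM at 0 h, and its call was lost after thinning, with all 46 libraries and in batch 1. The abundant markers Inha and Gja1 did not pass the test: Inha was at 16210, 17700 and 35300 CPM at 1 h, against 13710 to 44640 CPM at 0 h, and Gja1 at 48700, 40880 and 64690 CPM at 1 h, against 40830 to 82380 CPM at 0 h.

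The genes listed as FOXO targets went both ways. Of 27 tested, 7 rose and 3 fell, with a median of -0.02. Yod1, a deubiquitinase, was at 1172, 669 and 1514 CPM at 1 h, against 21.01 to 50.4 CPM at 0 h, a log2 fold change of 4.94 ± 0.27 (SE, edgeR adjusted p = 1.11e-09), and its exons overlap those of Pfkfb2 on the other strand. Zfand5, Ccng2 and Gabarapl1 rose by 3.44, 2.37 and 1.99 on the log2 scale, with the call of Ccng2 lost after thinning, while Txnip, Bnip3 and Klf15 fell. Of 39 tested genes of hypoxia, glycolysis and angiogenesis, 8 fell and 1 rose (Epas1), with a median of -0.48. Pgam1, a glycolytic enzyme, was at 847, 950 and 776 CPM at 1 h, against 1186 to 2588 CPM (median 2196) at 0 h, a log2 fold change of -1.32 ± 0.25 (SE, edgeR adjusted p = 0.00169). Ldha and Tpi1 fell by 0.78 ± 0.26 and 0.90 ± 0.30 with groups that overlapped. Without 1 h replicate 11, 3 genes of that list fell and none rose, without the "_ds" libraries 3 fell likewise, and without 0 h replicate 3, 12 fell and 2 rose.

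Cell death genes went both ways as well: 7 of 25 tested fell and 4 rose (median -0.45), and 4 fell without 1 h replicate 13. Cdkn1a, an inhibitor of the cell cycle, was at 169, 276 and 293 CPM at 1 h, against 17.6 to 97.7 CPM at 0 h, a log2 fold change of 2.31 ± 0.36 (SE, edgeR adjusted p = 2.26e-04). Casp6, a caspase, had 0 counts at 1 h, against 15.97 to 45.8 CPM at 0 h. Of 22 cyclins and inhibitors of their kinases, 4 rose and 3 fell (median -0.31), while 1 fell without 1 h replicate 11 and 5 without 0 h replicate 3. Ccng1 was at 166, 122 and 161 CPM at 1 h, against 237 to 686 CPM at 0 h. Of 17 genes of the MYC network, 3 rose and 4 fell (median 0.11), while 1 rose without 1 h replicate 13. Myc was at 280, 225 and 85.2 CPM at 1 h, against 8.85 to 80.2 CPM at 0 h, while its partner Max had a log2 fold change of -2.85 ± 0.55 (SE). Mlx, also of that network, had 2 counts over the 3 libraries at 1 h, against 20.4 to 55.9 CPM at 0 h, a ratio of counts at 0 h over 1 h at equal depth of 22.8 (95% exact binomial interval 6.29 to 189, counting error only). Its exons overlap those of Psmc3ip on the other strand. Of 12 NOTCH genes 1 rose (Heyl) and 1 fell (Hey2), with a median of -0.39, and of 13 WNT genes 2 rose (Sfrp4 and Fzd4), with a median of 0.46. The call of Heyl was lost after thinning (edgeR adjusted p = 0.106). Without 0 h replicate 3, 2 NOTCH genes and 4 WNT genes rose, without 1 h replicate 11, 2 WNT genes fell, and without 1 h replicate 13, 1 WNT gene rose and 2 NOTCH genes fell.

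The 12 falls that came first by fitted fold change under the naming rule all had 0 counts over the 3 libraries at 1 h, so only bounds can be given and their rank is that of the fit. They were Tagap1, Eif2b3, Commd2, Tmem68, Tstd2, Casp6, Nradd, Zfp143, Suv420h2, Zfp719, Slc37a3 and Jade3. These genes passed the filter on low counts only through the 0 h libraries. Set against a floor of 3 counts over the group, Tagap1 was at least 18.6-fold lower at 1 h and Jade3 at least 8.06-fold lower, with the others between. In the batch 1 follicles at 1 h, the log2 fold changes of Tagap1 and Jade3 were -1.58 and -1.605. At 4 h in batch 2, with all 46 libraries scaled together, their medians were 51.4 and 11.3 CPM, against 30.1 and 12.7 CPM at 0 h. Polr3k, with 1 count at 1 h, had a ratio of counts at 0 h over 1 h at equal depth of 106 (95% exact binomial interval 19.03 to 4197, counting error only). It too could not pass the filter by the 1 h libraries alone, and its log2 fold change in the batch 1 follicles at 1 h was -1.93. Tagap1 was at 23.1 to 142 CPM at 0 h and Eif2b3, a subunit of the exchange factor of translation initiation, at 11.4 to 66.0 CPM. Eif2b3, Zfp143, Suv420h2 and Slc37a3 missed the threshold after thinning. When all 46 libraries were scaled together, the median over the 214 falls with 0 counts was 3.26 CPM in the 10 batch 1 follicles at 1 h, against 8.93 CPM at 0 h. The counts had been adjusted for batch with a method that keeps a 0 at 0, and its part in the size of these falls was not tested. With genes under 20 counts over the 6 libraries left out, 861 of 8354 genes fell.

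Most falls, as given above, were in no list or name family, and the families below are described by their counts. Of 196 tested zinc finger genes named Zfp and a number, 41 (20.9%) fell and 9 rose, with a median of -0.97; 23 of the 41 had 3 or fewer counts at 1 h and 6 had 30 or more. Thinned to equal depth, 4 of 69 fell. Zfp266 was at 35.9, 62.3 and 145 CPM at 1 h, against 177 to 460 CPM at 0 h, and it too missed the threshold when thinned (edgeR adjusted p = 0.0559). Of 74 tested RING finger and TRIM ubiquitin ligases, 14 fell and 1 rose (median -0.44). Rnf141 was at 8.98, 40.6 and 47.3 CPM at 1 h, against 69.6 to 150 CPM at 0 h. Of 60 F-box and KLHL adaptors of ubiquitin ligases, 11 fell and 3 rose (median -0.61), with Fbxo34 higher by 3.38 ± 0.25 (log2, SE). Of 26 BTB zinc finger genes 6 fell and 1 rose (median -0.43), of 25 RNA polymerase subunits 5 fell and none rose (median -0.44), and of 122 TMEM genes 18 fell and 3 rose (median -0.52). Without 1 h replicate 13, 3 of the polymerase subunits fell, 2 RING and TRIM genes rose and 5 F-box and KLHL genes rose. Without 1 h replicate 11, 1 TMEM gene rose, without 1 h replicate 12 no BTB gene rose, and without 0 h replicate 2 no RING or TRIM gene rose. After thinning none of 27 tested F-box and KLHL genes did.

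Large sets of housekeeping genes are given here beside the shares of all genes, of which 7.34% rose and 11.6% fell, with no test of the difference. Of 77 nuclear genes of oxidative phosphorylation, 4 fell and none rose (median -0.25), of 12 mitochondrially encoded genes 1 rose (mt-Nd6, median 0.17), and of 80 cytosolic ribosomal protein genes 3 rose and none fell (median 0.21). Of 43 genes of mitosis 2 fell and none rose (median -0.35). Of 37 of DNA replication 6 (16.2%) fell and 3 (8.11%) rose (median -0.48), 4 of the falls with 3 or fewer counts at 1 h. None of these 3 rises and 2 of the 6 falls stood in each fit without 1 library, and none rose without the "_ds" libraries. Of 60 ribosome biogenesis genes 5 rose and 3 fell (median -0.15), of 46 proteasome genes 4 fell (median -0.25), and of 76 mitochondrial ribosomal genes 6 fell and 2 rose (median -0.38). Of 34 RAB GTPases 2 fell (median -0.08). These counts were small and moved when 1 library was left out. Between 1 and 7 genes of oxidative phosphorylation fell in the 12 such fits, 2 to 9 of DNA replication, 2 to 8 of the proteasome, 5 to 10 of the mitochondrial ribosome, 2 to 4 of mitosis and 2 to 7 of ribosome biogenesis, while 1 to 3 cytosolic ribosomal protein genes, 1 to 3 of DNA replication, 3 to 6 of ribosome biogenesis, 0 to 2 of the mitochondrial ribosome and 0 to 1 mitochondrially encoded genes rose.

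Gene span and exon number were compared as a description, with no test. Of the 36 immediate early genes that rose, the 34 with a gene model spanned a median of 5.39 kb with 4 exons in the longest transcript, and 41.2% had 3 or fewer exons. Of the other 664 rises, the 594 with a gene model spanned a median of 25.2 kb with 9 exons, the 193 of at least 4-fold 19.3 kb with 7 exons, 1033 of the falls 22.5 kb with 9 and 8797 of all genes tested 24.9 kb with 10. The shares with 3 or fewer exons were 12.1%, 15.03%, 11.1% and 9.74% in the same order. Gene models (GENCODE M21) were found for 92.3% of genes tested.

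Over all 700 rises, the median log2 difference from the 0 h mean came to 1.72 in replicate 11, 1.50 in replicate 12 and 1.69 in replicate 13, and the largest of the 3 lay in replicate 11 in 284 genes, in replicate 12 in 131 and in replicate 13 in 285. Over the 259 rises that met the naming rule apart from rank, the median log2 difference from the 0 h mean came to 2.44 in replicate 11, 2.27 in replicate 12 and 2.52 in replicate 13. Replicate 12 thus had the smallest median in both sets, and which of the others led depended on the set. Log2 CPM correlated between follicles with r of 0.784 to 0.824 at 1 h and 0.808 to 0.949 at 0 h, a description across genes that depth also shapes.

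The 10 follicles of batch 1 at 1 h were set against the same 9 follicles at 0 h, so the 2 comparisons share their controls, and batch and time cannot be told apart in the comparison across batches. There, 20.7% of 7000 genes tested were higher and 22.5% lower. Over the 547 of the 664 rises outside the immediate early list that were tested in both, the median log2 fold change was 1.48 in batch 2 and 1.35 in batch 1. Over the 235 falls with 30 or more counts at 1 h it was -1.24 in batch 2 and -0.84 in batch 1, and over 208 falls with 3 or fewer counts it was -4.59 in batch 2 and -1.40 in batch 1. By gene, the log2 fold change was 8.82 in batch 2 and 7.88 in batch 1 for Cxcl1, 6.83 and 6.02 for Star, 4.78 and 4.32 for Cry2, -2.51 and -1.75 for Foxo1, and -1.62 and -0.28 for Esr2, which was not called in batch 1 (edgeR adjusted p = 0.190).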

How the data were processed

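The libraries were unstranded, from polyadenylated RNA. Per the submitters' processing notes, HISAT2, Partek and DESeq2 were used on GRCm38, with versions not given in the sources used here. The authors deposited whole-number counts per gene, adjusted for batch with ComBat-seq per the file names, and TPM values made from those adjusted counts. Of the columns of each table, 10 match no described sample and were not used. From the counts, edgeR 4.0.16 (R 4.3.3) gave TMM factors, CPM and a quasi-likelihood test of 1 h against 0 h after its filter on low counts (minimum count 10), with Benjamini-Hochberg adjustment and calls at 0.05; SE is the fold change over the root of F. The members and lists were chosen with earlier results of these data known. Named were the 12 largest rises and falls called in each fit without 1 library (mean log2 CPM of at least 3, at least 20 counts over the 6 libraries), the 2 largest of each of 34 lists and 29 name families, and 9 set genes; other names were chosen after their values were seen. Bounds use a floor of 3 counts over the group, and intervals (95%, exact binomial) cover counting error only. Reads shared by near-identical copies (tubulins, actins, ubiquitins, ribosomal proteins) and by genes that overlap on the other strand (for example Yod1, Ppp1r15a, Mlx, Rnf141, Dusp1 and Tstd2) cannot be assigned with certainty. Alternatives were DESeq2 1.42.0, limma 3.58.1 on log2(TPM + 1), other filters, thinning and leaving out libraries.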

Additional observations from a re-analysis of the deposited data

Results flagged for a closer look

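In 21 of 170 sets of the 9 values at 0 h, 1 follicle lay apart from the other 8 (the gap at the highest or lowest value exceeded the 95% limit of Dixon's test, which chance passes in about 1 of 20 sets); the values are log2 CPM except for the marker sums, and no cause was tested. Replicate 1 stood high for genes that rose at 1 h. It was at 4.60 for Cxcl1 (0.15 to 1.86 in the others), 0.98 for Cxcl2 (0.15 in the others), 1.88 for Areg (0.15 to 0.97), 1.88 for Nr4a3 (0.15 to 0.55) and 5.38 for Fbxo32 (3.88 to 4.62), and low at 3.72 for Ccnl1 (4.64 to 5.31). At 1 h the follicles were above replicate 1 in Cxcl1, Cxcl2 and Areg too. Replicate 2 stood low, at 3.08 for Fbxo42 (3.98 to 4.77), 3.33 for Nradd (4.26 to 5.01) and 5.14 for Ppp1r15a (5.74 to 6.24).

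Replicate 3 accounted for 9 of the 21. It was high at 9.19 for Skil, a repressor of SMAD signaling (6.19 to 7.38 in the others), 6.15 for Itgav (3.53 to 4.77), 6.31 for Spry2 (3.04 to 4.29) and 7.16 for Tagap1 (4.60 to 5.57). It was low at 9.83 for Ddx5 (10.41 to 10.91), 10.21 for Pgam1 (10.77 to 11.34), 6.74 for Rnf181 (7.62 to 8.29), 5.87 for Tmem123 (6.76 to 7.41) and 0.15 for Pakap (4.32 to 5.15), a gene that shares exons with its neighbors. Replicate 7 was at 7.57 for Klf6 (5.31 to 6.37) and had an endothelial marker sum of 84.0 CPM (12.2 to 40.3 CPM in the others). Replicate 8 had a leukocyte marker sum of 194 CPM (14.8 to 95.9 CPM).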

How the results depend on the processing

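No paired analysis was possible because the replicates at 1 h (11 to 13) and at 0 h (1 to 9) share no number. Against 1802 calls, 700 higher and 1102 lower, the following alternatives gave counts more than 1.5 times apart, and the cause was not tested. A fit of all 46 libraries with a batch term called 2956 genes, 1241 higher and 1715 lower. The 10 batch 1 follicles at 1 h gave 3029 calls, 1452 higher and 1577 lower. limma called 3784 genes on log2(TPM + 1), 3835 on log2(TPM + 0.1) and 3825 on log2(TPM + 1) without a filter, of which 3021, 3179 and 2879 were lower. These TPM fits moved the median of all genes to -0.46, -0.65 and -0.24, against -0.21. With fewer genes tested, a mean log2 CPM of at least 5 (3323 genes) gave 739 calls, 403 higher and 336 lower, and thinning to 379640 counts (5458 genes) gave 352, 225 higher and 127 lower. With fewer libraries, leaving out the 5 "_ds" libraries gave 833 calls, 334 higher and 499 lower. Leaving out 1 library gave 1329 to 2074 calls, 419 to 805 higher and 769 to 1269 lower, with the fewest higher without 1 h replicate 11. DESeq2 (710 higher and 1494 lower), the other size factors, all 15 batch 2 libraries, no filter, and genes kept or left out by count stayed within 1.5 times. Among the named genes that were called, the direction was the same under these alternatives. In the 12 fits that left out 1 library, the same direction was a condition of naming by rank. Lhcgr, which was not called, changed sign under several, with -1.48 without 1 h replicate 13. Calls of named genes ended most often with thinning (26 of the 138 named genes with a value there). The depth at 1 h limits what can be seen of low genes that fell.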

Other observations

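Further families of genes held a few rises each, to be read against 7.34% of all genes that rose and 11.6% that fell. Kdm6b, which removes a repressive mark from histone H3, was at 420.5, 295 and 615 CPM at 1 h, against 78.4 to 161 CPM at 0 h, a log2 fold change of 2.00 ± 0.23 (SE, edgeR adjusted p = 1.16e-05). Of 15 tested JmjC and KDM genes 1 rose and 2 fell (median -0.21; 1 fell without 0 h replicate 2 and 3 without 0 h replicate 4). Of 10 Kruppel-like factors 4 rose and 2 fell (median 1.28), both falls with 3 or fewer counts at 1 h, and none fell without 1 h replicate 11. Klf3, a repressor of that family outside the immediate early list, was at 61.4, 37.9 and 78.9 CPM at 1 h, against 5.22 to 21.99 CPM at 0 h. The call of Klf3 was lost after thinning (edgeR adjusted p = 0.0510). Among solute carriers, 13 of 135 (9.63%) rose and 13 (9.63%) fell (median -0.20), and 4 of the rises and 4 of the falls stood in each fit without 1 library. There were 4 rises without 1 h replicate 11, 8 falls without 1 h replicate 13 and 20 falls without 0 h replicate 3. The mitochondrial phosphate carrier Slc25a3 was at 2556, 2180 and 3123 CPM at 1 h, against 382 to 1082 CPM at 0 h, a log2 fold change of 1.81 ± 0.24 (SE, edgeR adjusted p = 3.96e-05), so all 3 follicles at 1 h lay above those at 0 h.

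In families of RNA handling and of ubiquitin removal, the counts are to be read against 7.34% of all genes that rose and 11.6% that fell. Of 42 DEAD and DEAH box helicases 3 rose and 3 fell (median -0.18). Ddx5, a helicase of splicing and transcription, was at 3427, 3014 and 3896 CPM at 1 h, against 908 to 1923 CPM at 0 h, a log2 fold change of 1.21 ± 0.21 (SE, edgeR adjusted p = 6.86e-04). Of 29 SRSF and hnRNP splicing factors 2 rose and 2 fell (median 0.18), and of 29 Mediator subunits 1 rose and 3 fell (median -0.40). No splicing factor rose without 1 h replicate 13 and none fell without 1 h replicate 12, while no Mediator subunit rose without 0 h replicate 4 and 5 fell without 1 h replicate 12. Of 37 ubiquitin-specific proteases 3 rose and 5 fell (median -0.36), and 2 fell without 1 h replicate 12. Usp3, the most abundant of the 3 that rose, was at 229, 211 and 284 CPM at 1 h, against 70.8 to 152 CPM at 0 h. Its call was lost after thinning (edgeR adjusted p = 0.0890). The transcriptional repressors of SMAD signaling Tgif1 and Skil rose by 2.34 ± 0.22 and 2.46 ± 0.46 (log2, SE), with all 3 follicles at 1 h above the 9 at 0 h in both.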
